A study of Mus musculus with 51 samples.

Results

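The lung response to an airway dose of methylene diphenyl diisocyanate (MDI) was compared between mice without mature B cells and C57BL/6 mice. MDI is a reactive chemical of polyurethane production and a cause of occupational asthma. The comparison was a difference of differences: MDI minus control in B-cell deficient mice, less MDI minus control in C57BL/6 mice, for each of 22206 probe sets. It used 35 of the 51 arrays of the series. Of these, 7 arrays came from B-cell deficient MDI-exposed mice, 9 from B-cell deficient controls, 13 from C57BL/6 MDI-exposed mice and 6 from C57BL/6 controls, none of them given crofelemer. A further 2 arrays carry labels that contradict each other on treatment and were left out.

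The B-cell deficient strain was B6.129S2-Ighmtm1Cgn/J, in which a targeted mutation of the immunoglobulin heavy chain gene Ighm stops B-cell development in every tissue from birth. All mice were male and 6 to 8 weeks old. All groups, controls included, had been sensitized through the skin of the back with 1% MDI in acetone. On days 15, 16, 19 and 20 the MDI groups received, through the nose, the product of MDI reacted with glutathione. The controls received MDI and glutathione that had been reacted apart. Lungs were perfused, their airways were lavaged, and whole-lung RNA was taken 48 h after the last dose, so cells free in the airspaces were partly removed. No label calls the C57BL/6 mice littermates of the B-cell deficient ones. The array of C57BL/6 MDI replicate 14 has a source description that names the control product, while its title and its exposure label say MDI.

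Type I interferons signal through a shared receptor to transcription factors that include Irf9 and bind a promoter sequence called the interferon-stimulated response element. The genes switched on this way encode antiviral proteins and parts of the pathway that shows peptides to CD8 T cells on MHC class I. B cells make antibody, present antigen on MHC class II and, in the lung after allergen exposure, gather with T cells. An airway type 2 response, with eosinophils, alternatively activated macrophages and mucous cells, depends mainly on T cells and innate lymphoid cells.

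Values are log2 signals as deposited, group values are the lowest, median and highest array, and differences are on the same log2 scale ± SE. Tests were made with limma over all probe sets, and a probe set is called when its Benjamini-Hochberg adjusted p is under 0.05. Array means were 8.03 to 8.05 and 8.02 to 8.07 in B-cell deficient MDI and control lungs, and 7.48 to 7.51 and 7.49 to 7.51 in C57BL/6 MDI and control lungs. The genotypes thus look separately normalized, and a level is not compared between genotypes except where the gap is stated. Of the 9 B-cell deficient controls, 4 (replicates 1, 2, 5 and 6) had a narrower spread over all probe sets, with SDs of 2.85 to 2.96 against 3.03 to 3.06 in the other 5, and counts are also given without these 4. The spread was 3.03 to 3.09 in B-cell deficient MDI lungs, 3.06 to 3.28 in C57BL/6 MDI lungs and 3.21 to 3.29 in C57BL/6 controls. The records were submitted in 3 runs of consecutive entries, called submission blocks here, which no label names as batches. Blocks 1 and 2 held 4 and 3 B-cell deficient MDI arrays and block 2 all 9 B-cell deficient controls. Block 1 held 12 C57BL/6 MDI and 4 C57BL/6 control arrays and block 3 the other 1 and 2. Within-block values compare block 2 in B-cell deficient mice with block 1 in C57BL/6 mice, so genotype and block cannot be told apart in them.

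The genotype labels were checked on B-cell genes, since no probe set here is annotated to Ighm. Cd79a, the signalling chain of the B-cell receptor, had signals of 4.50, 5.00 and 5.32 in B-cell deficient MDI lungs, against 4.97, 5.19 and 5.84 in B-cell deficient controls. In the other strain Cd79a had 9.23, 10.81 and 11.52 in C57BL/6 MDI lungs, against 10.21, 11.16 and 11.79 in C57BL/6 controls. No B-cell deficient array came near the C57BL/6 range for this gene. Ms4a1, the surface protein CD20, had 3.35, 4.23 and 4.46 in B-cell deficient MDI lungs, against 4.19, 4.48 and 4.68 in B-cell deficient controls. Ms4a1 signals in the other strain were 6.04, 7.10 and 7.83 in C57BL/6 MDI lungs, against 6.61, 6.79 and 7.62 in C57BL/6 controls, again with no overlap between the strains. Neither gene's effect of MDI passed the test in either strain.

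Over all genes, 4502 probe sets were called for the difference, 20.3% of the 22206 tested, with 2059 higher (9.27%) and 2443 lower (11%). Higher means that the effect of MDI was more positive in B-cell deficient mice. Without the 4 narrow controls 719 were called (3.24%), 359 higher and 360 lower (1.62% each). Within blocks 1584 were called (7.13%), 851 higher (3.83%) and 733 lower (3.3%). MDI itself called 8205 probe sets in B-cell deficient mice (36.9%) and 3225 in C57BL/6 mice (14.5%). The median difference over all probe sets was -0.01. Direction followed signal: among the 11103 probe sets above the median signal 1669 were called higher (15%) and 339 lower (3.05%), while among the dimmer 11103 there were 390 higher (3.51%) and 2104 lower (18.9%). Without the narrow controls the brighter probe sets had 291 higher (2.62%) and 67 lower (0.603%), and the dimmer ones 68 higher (0.612%) and 293 lower (2.64%). The split also followed the scaling. Of the calls, 45.7% were higher as deposited, 49.4% after quantile normalization, 28.5% with each array centred on its median, 24.6% with each array centred and scaled to one spread, and 83.2% with dim probe sets filtered out. The median of all probe sets moved to -0.11 and -0.14 under centring and under centring with scaling. The cause of these shifts was not tested, and in whole lung, fewer cells of a type and less RNA per cell cannot be told apart.

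**Figure D1:**
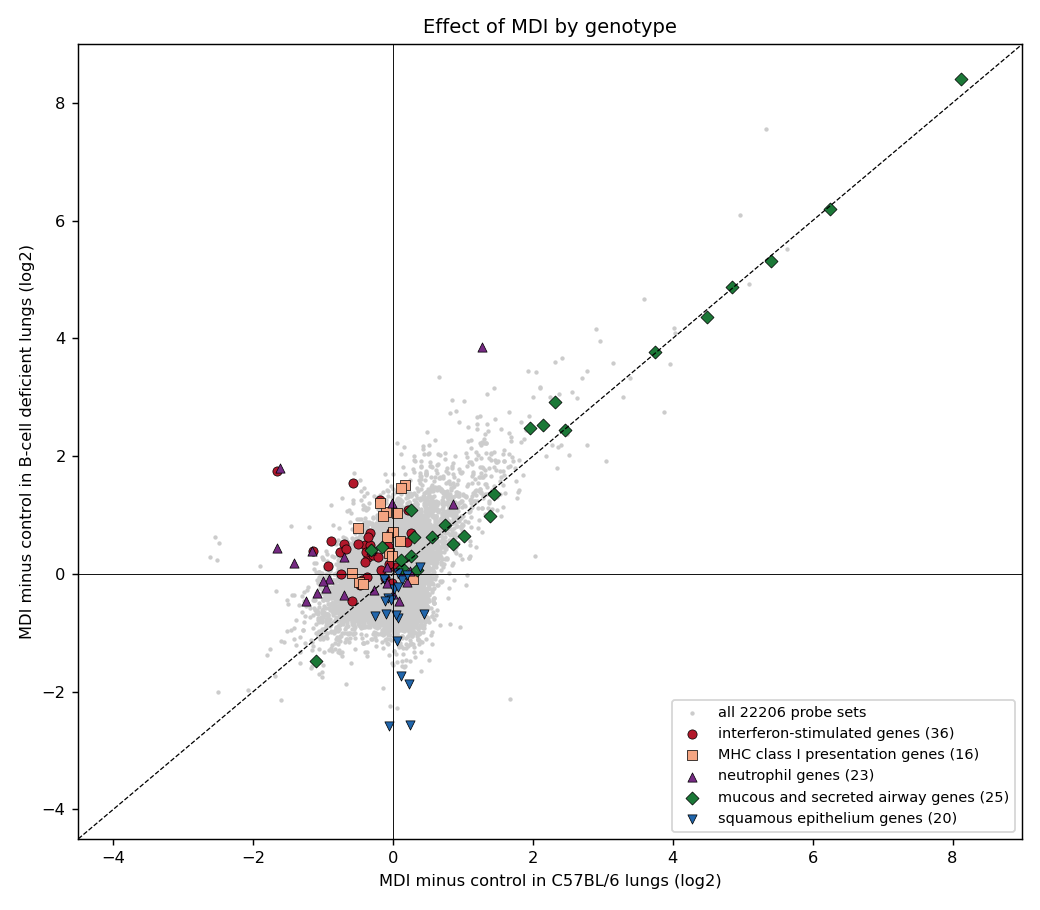
MDI minus control in B-cell deficient lungs (vertical, log2) against that in C57BL/6 lungs (horizontal, log2) for all 22206 probe sets in grey and 5 gene lists in colour, with the line of equal effects dashed. Most mucous genes lie near the line, most interferon-stimulated and MHC class I genes lie above it, and most squamous epithelium genes lie below it.

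Many interferon-stimulated genes rose with MDI in B-cell deficient mice, and many fell in C57BL/6 mice. Of 36 measured, 22 were called higher in the difference and none lower, beside 9.27% of all probe sets called higher, and 35 of 36 differences were positive, with a median of 0.73. In B-cell deficient mice 17 rose and 1 fell with MDI, where 16.2% of all probe sets rose and 20.7% fell. The rise was called for 10 without the narrow controls, where 7.95% of all probe sets rose. In C57BL/6 mice none rose and 14 fell, where 5.3% rose and 9.23% fell. There were 7 genes that both rose in B-cell deficient and fell in C57BL/6 mice, a pattern that 0.45% of all probe sets had, and none with the opposite pattern (0.297%). This pattern held for 3 genes without the narrow controls, and for 0.0721% of all probe sets. Without the narrow controls 14 of the 36 were called higher, and within blocks 16, where 3.83% of all probe sets were. With arrays centred and scaled, 17 were called higher and 2 lower.

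Irf7, the transcription factor that amplifies interferon production, had the largest difference of the list. Its signals were 6.19, 7.49 and 8.39 in B-cell deficient MDI lungs, against 4.94, 5.84 and 6.19 in B-cell deficient controls. For Irf7, the other strain had 5.17, 6.49 and 7.30 in C57BL/6 MDI lungs, against 6.79, 7.91 and 9.72 in C57BL/6 controls. The MDI lungs of B-cell deficient mice lay mostly above their controls and those of C57BL/6 mice mostly below theirs, and the lowest B-cell deficient MDI lung equalled the highest of their controls. The effects were 1.75 ± 0.30 (adjusted p = 1.18e-05) in B-cell deficient mice and -1.65 ± 0.29 (adjusted p = 8.03e-05) in C57BL/6 mice, and the difference was 3.40 ± 0.42 (adjusted p = 2.64e-06). It was 3.12 ± 0.46 (adjusted p = 0.000337) without the narrow controls and 4.33 ± 0.48 (adjusted p = 4.68e-06) within blocks. The probe set lies below the median signal of the array, so its folds hold only for the deposited scale.

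Usp18, a protease that removes the modifier Isg15 and restrains the interferon receptor, had signals of 9.31, 9.43 and 9.92 in B-cell deficient MDI lungs, against 8.78, 9.08 and 9.33 in B-cell deficient controls. C57BL/6 signals of Usp18 were 8.44, 8.96 and 9.32 in C57BL/6 MDI lungs, against 9.15, 9.44 and 10.33 in C57BL/6 controls. Both pairs of groups overlapped, in opposite order. The effects were 0.42 ± 0.14 (adjusted p = 0.0167) and -0.67 ± 0.14 (adjusted p = 0.000451), with a difference of 1.09 ± 0.20 (adjusted p = 0.000269). The rise of Usp18 in B-cell deficient mice lost its call without the narrow controls (0.34 ± 0.16 (adjusted p = 0.148)) and within blocks (0.44 ± 0.18 (adjusted p = 0.085)). Xaf1, an interferon-induced partner of the apoptosis inhibitor Xiap, had 10.07, 10.24 and 10.55 in B-cell deficient MDI lungs, against 9.38, 9.63 and 9.92 in B-cell deficient controls. Xaf1 signals in the other strain were 9.60, 9.82 and 10.32 in C57BL/6 MDI lungs, against 9.81, 10.06 and 11.03 in C57BL/6 controls. The B-cell deficient MDI lungs all lay above their controls while the C57BL/6 groups overlapped, and the difference was 0.98 ± 0.18 (adjusted p = 0.000268).

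Oas2, which makes the short oligoadenylates that activate RNase L, differed mainly through C57BL/6 mice. Its signals were 5.34, 5.94 and 6.12 in B-cell deficient MDI lungs, against 5.09, 5.32 and 6.10 in B-cell deficient controls. For Oas2, the other strain had 4.46, 5.09 and 5.87 in C57BL/6 MDI lungs, against 5.63, 6.04 and 7.97 in C57BL/6 controls. The effect was 0.38 ± 0.21 (adjusted p = 0.149) in B-cell deficient and -1.15 ± 0.21 (adjusted p = 9e-05) in C57BL/6 mice, and the difference was 1.54 ± 0.30 (adjusted p = 0.000477). Slfn8, of the Schlafen family, differed mainly through B-cell deficient mice. It had signals of 8.05, 8.26 and 8.41 in B-cell deficient MDI lungs, against 6.61, 7.02 and 7.34 in B-cell deficient controls. Slfn8 in C57BL/6 mice had signals of 7.48, 8.07 and 8.64 in C57BL/6 MDI lungs, against 7.73, 8.09 and 9.22 in C57BL/6 controls, and these overlapped over most of their range. The effects were 1.25 ± 0.17 (adjusted p = 1.21e-07) and -0.19 ± 0.17 (adjusted p = 0.515), with a difference of 1.43 ± 0.24 (adjusted p = 0.000116). Isg15 itself, a ubiquitin-like modifier, had a difference of 0.60 ± 0.20 (adjusted p = 0.0285), lost without the narrow controls (0.50 ± 0.22 (adjusted p = 0.188)). That call also ended without C57BL/6 control 3 (adjusted p = 0.0738) or without B-cell deficient control 6 (adjusted p = 0.0524). Like that of Irf7, the probe sets of Oas2 and Isg15 lie below the median signal.

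C57BL/6 control 3 was the highest control for each of the 4 genes plotted by array, at 9.72 for Irf7, 10.33 for Usp18, 11.03 for Xaf1 and 7.97 for Oas2. Over the whole list, the mean of the 36 genes ran from 8.72 to 9.24 in B-cell deficient MDI lungs, against 8.41 to 8.68 in B-cell deficient controls. It ran from 8.13 to 8.72 in C57BL/6 MDI lungs, against 8.57 to 9.46 in C57BL/6 controls. The B-cell deficient groups did not overlap on this mean and the C57BL/6 groups did. Leaving out any single array changed no call of the difference for Irf7, Usp18, Xaf1, Oas2 or Slfn8.

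**Figure D2:**
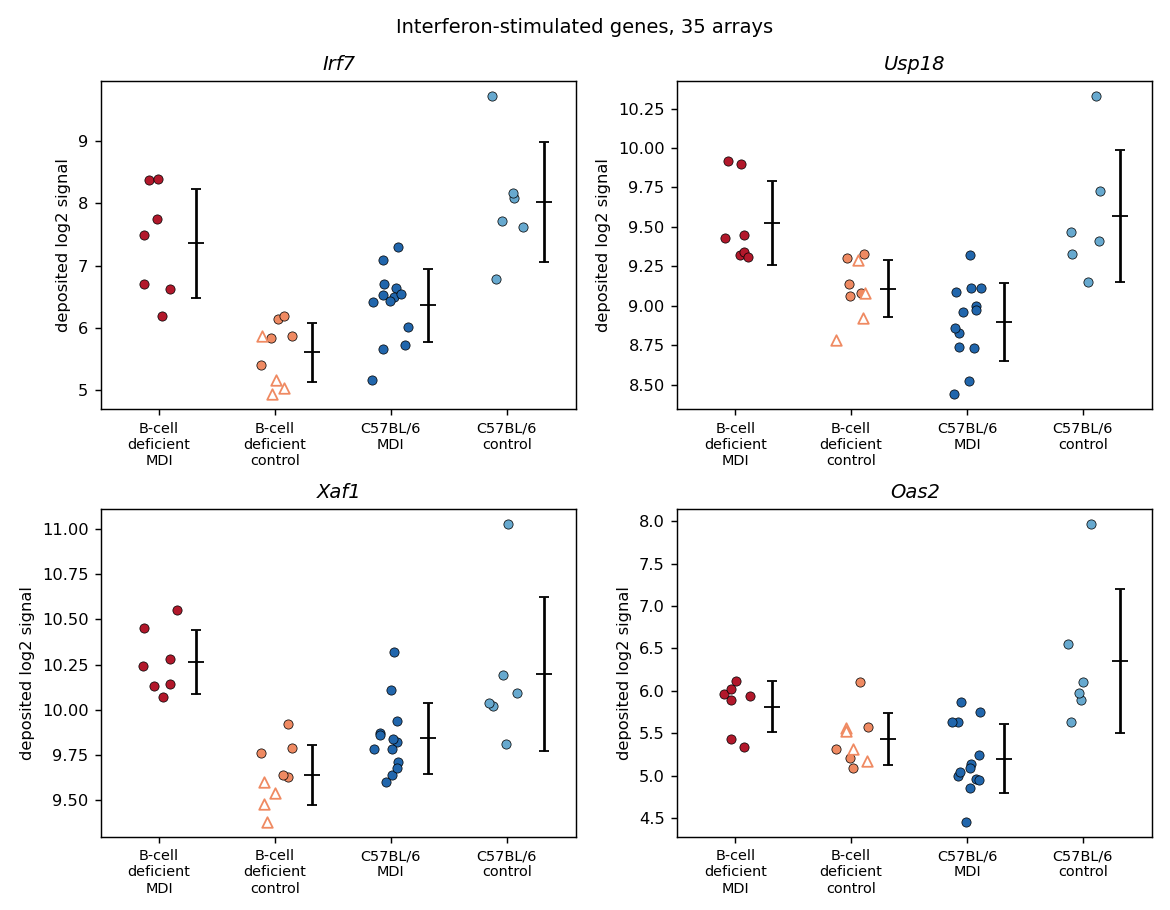
Deposited log2 signals of Irf7, Usp18, Xaf1 and Oas2 in each of the 35 arrays by group. Points are arrays, open triangles the 4 narrow B-cell deficient controls, and bars to the right the mean ± SD; in each panel the MDI group has the higher mean in B-cell deficient mice and the lower mean in C57BL/6 mice.

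The promoters of these genes were searched for the core of the response element, taken as GAAA, then any 2 bases, then GAAA, on both strands of a window from 250 bases before to 50 bases after the gene start (RefSeq, GRCm38.p6). A promoter was in hand for 26 of the 36 genes, and 14 held a match (53.8%), against 1079 of all 27025 promoters (3.99%). The share was 8 of 15 (53.3%) among the genes called higher and 6 of 11 (54.5%) among those not called. It was 8 of 15 (53.3%) among interferon-gamma-induced genes, 5 of 14 (35.7%) among MHC class I genes and 1 of 21 (4.76%) among neutrophil genes. A match, here and below to the core with 2 bases between, describes the letters of the window and is not shown to be bound. Its share was alike in called and uncalled members. With 3 bases between, the core was in 5 of 15 called (33.3%) and 1 of 11 uncalled genes (9.09%), against 3.17% of all promoters. The GAS motif, taken as TTC, any 3 bases, then GAA, was in 3 of 15 (20%) and 3 of 11 (27.3%), against 9.55%. These shares were not tested. The 4 promoters shown belong to called genes with a match and were chosen after their values were seen. The promoters of Irf7 and Xaf1 held no match, and none was in hand for Usp18 and Oas2. Ifit3 and Ifit3b, whose products bind viral RNA in a complex with Ifit1, had differences of 1.20 ± 0.26 (adjusted p = 0.00153) and 1.45 ± 0.27 (adjusted p = 0.000329). Rsad2, the antiviral enzyme viperin, had 1.07 ± 0.25 (adjusted p = 0.00253). The windows are chr19:34583279-34583578 (+ strand) for Ifit3, chr19:34607707-34608006 (+ strand) for Ifit3b, chr11:83020761-83021060 (- strand) for Slfn8 and chr12:26456403-26456702 (- strand) for Rsad2, each written 5′ to 3′ in the direction of the gene with the matches, here read on the opposite strand, in capitals.
Ifit3: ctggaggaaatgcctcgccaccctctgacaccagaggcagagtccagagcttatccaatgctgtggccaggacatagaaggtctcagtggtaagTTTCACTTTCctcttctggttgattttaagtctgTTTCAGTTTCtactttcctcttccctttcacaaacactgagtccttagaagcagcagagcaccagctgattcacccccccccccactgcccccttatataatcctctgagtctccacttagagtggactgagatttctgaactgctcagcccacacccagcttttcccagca
Ifit3b: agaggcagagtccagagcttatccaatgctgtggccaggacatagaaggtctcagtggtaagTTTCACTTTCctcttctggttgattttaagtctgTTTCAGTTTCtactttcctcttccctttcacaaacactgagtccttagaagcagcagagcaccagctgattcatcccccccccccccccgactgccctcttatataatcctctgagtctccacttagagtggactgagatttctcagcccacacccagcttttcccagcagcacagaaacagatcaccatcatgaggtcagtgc
Slfn8: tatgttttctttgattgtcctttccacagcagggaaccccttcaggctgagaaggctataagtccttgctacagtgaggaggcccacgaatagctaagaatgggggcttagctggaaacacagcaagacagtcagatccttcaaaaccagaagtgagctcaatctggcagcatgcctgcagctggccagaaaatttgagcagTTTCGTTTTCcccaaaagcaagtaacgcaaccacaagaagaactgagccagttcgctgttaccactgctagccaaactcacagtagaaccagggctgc
Rsad2: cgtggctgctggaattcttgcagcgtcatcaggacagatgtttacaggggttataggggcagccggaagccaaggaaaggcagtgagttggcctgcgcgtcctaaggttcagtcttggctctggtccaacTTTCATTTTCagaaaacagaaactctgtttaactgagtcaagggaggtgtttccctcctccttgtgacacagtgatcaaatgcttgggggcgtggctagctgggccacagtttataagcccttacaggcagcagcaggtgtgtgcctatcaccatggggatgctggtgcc

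The first match starts at -156 from the gene start in Ifit3, -188 in Ifit3b, -48 in Slfn8 and -120 in Rsad2, and Ifit3 and Ifit3b hold another at -122 and -154. In the best ungapped alignment the windows of Ifit3 and Ifit3b were identical at 201 of 268 bases (75%). Their transcripts are also near copies, so signal of one can bind the probes of the other and their separate values are uncertain.

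The interferon genes themselves did not share the pattern. Of 25 interferon and receptor genes, none was called higher and 8 were called lower, beside 11% of all probe sets, and 1 lower without the narrow controls. Before adjustment, limma's p was under 0.05 for 3 higher and 11 lower genes, and 2 were called higher without C57BL/6 control 3 or B-cell deficient control 8. Only 7 of the 25 lie above the median signal. Of the dimmer probe sets 18.9% were called lower, and 2.64% without the narrow controls. Ifna1, an alpha interferon, had signals of 7.15, 7.55 and 7.81 in B-cell deficient MDI lungs, against 7.79, 8.15 and 8.61 in B-cell deficient controls. Ifna1 signals in the other strain were 5.57, 6.08 and 6.47 in C57BL/6 MDI lungs, against 5.32, 5.65 and 5.82 in C57BL/6 controls. The difference was -1.03 ± 0.19 (adjusted p = 0.000277). Ifnb1, interferon beta, had a difference of -0.71 ± 0.20 (adjusted p = 0.00886) that ended without the narrow controls (-0.40 ± 0.18 (adjusted p = 0.208)). Ifng, interferon gamma, had 0.14 ± 0.21 (adjusted p = 0.672), with signals of 5.98, 6.29 and 6.78 in B-cell deficient MDI lungs, against 5.61, 6.08 and 6.44 in B-cell deficient controls. Alpha interferon genes are near copies of each other and cannot be told apart with certainty by these probes.

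Genes that sense nucleic acids and relay the interferon signal had 7 of 21 called higher and none lower, and 2 higher without the narrow controls. Of the 21, 18 lie above the median signal, where 15% of probe sets were called higher, and 2.62% without the narrow controls. Unc93b1, which escorts Toll-like receptors to the endosome, had effects of 1.32 ± 0.23 (adjusted p = 1.12e-05) and -0.28 ± 0.22 (adjusted p = 0.456), and a difference of 1.59 ± 0.32 (adjusted p = 0.000581). Adar, an RNA-editing enzyme with an interferon-inducible form, had a difference of 0.93 ± 0.19 (adjusted p = 0.000904). Tlr9, the sensor of unmethylated DNA, had 1.03 ± 0.26 (adjusted p = 0.00418), and all 7 B-cell deficient MDI lungs lay above their controls (6.52 to 7.57, against 5.71 to 6.50). Irf9, the DNA-binding part of the type I interferon signal complex, had 0.63 ± 0.19 (adjusted p = 0.0172). Tlr9 and Irf9 lost the call without the narrow controls (adjusted p = 0.0938 and 0.0832).

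Most MHC class I presentation genes rose with MDI in B-cell deficient mice, and none was called higher with MDI in C57BL/6 mice. Of 16 measured, 12 rose and none fell in B-cell deficient mice, where 16.2% of all probe sets rose and 20.7% fell. In C57BL/6 mice none rose and 3 fell, where 5.3% rose and 9.23% fell. In the difference 11 were called higher and none lower (median 0.71), 9 without the narrow controls and 10 within blocks. With arrays centred and scaled, 4 were called higher and 3 lower. All 16 lie above the median signal, where 15% of probe sets were called higher, and 2.62% without the narrow controls.

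H2-K1, a classical class I heavy chain, had signals of 16.35, 16.55 and 16.81 in B-cell deficient MDI lungs, against 15.29, 15.52 and 15.77 in B-cell deficient controls. For H2-K1, the other strain had 15.77, 16.51 and 16.66 in C57BL/6 MDI lungs, against 16.02, 16.41 and 16.51 in C57BL/6 controls. All B-cell deficient MDI lungs exceeded their controls, while the C57BL/6 groups overlapped almost wholly. The effects were 1.03 ± 0.12 (adjusted p = 3.56e-09) and 0.05 ± 0.12 (adjusted p = 0.825), with a difference of 0.97 ± 0.17 (adjusted p = 0.000167), which turned to -0.19 with arrays centred and scaled. Psmb8, a catalytic subunit of the immunoproteasome, had signals of 11.11, 11.24 and 11.42 in B-cell deficient MDI lungs, against 9.36, 9.76 and 10.18 in B-cell deficient controls. C57BL/6 signals of Psmb8 were 10.27, 10.99 and 11.30 in C57BL/6 MDI lungs, against 10.52, 10.80 and 11.00 in C57BL/6 controls. Again the B-cell deficient groups did not overlap and the C57BL/6 groups did, and the difference was 1.33 ± 0.18 (adjusted p = 1.45e-05), or 1.22 ± 0.19 (adjusted p = 0.000779) without the narrow controls.

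Psmb9, another immunoproteasome subunit, had a difference of 1.12 ± 0.21 (adjusted p = 0.000419), and Tap1, which carries peptides into the endoplasmic reticulum, had 1.39 ± 0.27 (adjusted p = 0.000533). H2-D1, a classical heavy chain, had 1.34 ± 0.22 (adjusted p = 0.000141). H2-T23, which presents leader peptides to natural killer receptors, had 1.15 ± 0.21 (adjusted p = 0.000371). In each of these 4 genes the B-cell deficient MDI lungs all lay above their controls and the C57BL/6 groups overlapped. H2-Q5, a class I family member outside the list, rose in B-cell deficient mice (1.21 ± 0.20 (adjusted p = 4.42e-06)), fell in C57BL/6 mice (-0.58 ± 0.19 (adjusted p = 0.0339)) and had a difference of 1.78 ± 0.27 (adjusted p = 4.51e-05). Class I genes are near copies of each other, so their separate values are uncertain.

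Of 20 interferon-gamma-induced genes, which share Psmb8, Psmb9 and Tap1 with the class I list, 9 were called higher and none lower, and 5 without the narrow controls. Above the median signal lie 15 of the 20, and there 15% of probe sets were called higher, and 2.62% without the narrow controls. Igtp, an interferon-inducible GTPase, rose in B-cell deficient (0.52 ± 0.20 (adjusted p = 0.0353)) and fell in C57BL/6 mice (-0.82 ± 0.20 (adjusted p = 0.0028)), and its difference was 1.34 ± 0.28 (adjusted p = 0.00101). The rise of Igtp was not called without the narrow controls (0.40 ± 0.23 (adjusted p = 0.243)) or within blocks (0.44 ± 0.27 (adjusted p = 0.251)).

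Many MHC class II genes rose in both strains. Of 13 measured, 11 rose in B-cell deficient and 6 in C57BL/6 mice, where 16.2% and 5.3% of all probe sets rose, and none fell. The difference called 6 higher and none lower, but none without the narrow controls and 1 within blocks. Of the 13, 11 lie above the median signal, where 15% of probe sets were called higher. H2-Ab1, a class II beta chain, had effects of 1.48 ± 0.20 (adjusted p = 1.63e-07) and 0.64 ± 0.20 (adjusted p = 0.0223), the second not called within blocks (0.55 ± 0.23 (adjusted p = 0.138)). H2-Aa, the matching alpha chain, had 1.43 ± 0.20 (adjusted p = 3.21e-07) and 0.53 ± 0.20 (adjusted p = 0.0614). Their differences were 0.83 ± 0.28 (adjusted p = 0.0314) and 0.90 ± 0.28 (adjusted p = 0.021), and turned to -0.19 and -0.079 with arrays centred and scaled. H2-DMa, part of the peptide exchange factor of class II, had a difference of 1.29 ± 0.34 (adjusted p = 0.00574), and H2-DMb2, its partner chain, had 0.96 ± 0.27 (adjusted p = 0.0114). The count was 2 without C57BL/6 control 2 and 3 without C57BL/6 control 4, B-cell deficient control 5, B-cell deficient control 6 or B-cell deficient MDI 6.

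Natural killer and cytotoxic genes were also among those whose effects differed. Of 16 measured, 9 were called higher and 1 lower (median 0.71), with 4 higher without the narrow controls and 7 within blocks. Over all probe sets 9.27% were called higher and 11% lower. The 1 lower call was lost without the narrow controls, within blocks and when any of 13 single arrays was left out. In B-cell deficient mice 6 rose and 1 fell, where 16.2% of all probe sets rose and 20.7% fell. In C57BL/6 mice none rose and 3 fell, where 5.3% rose and 9.23% fell. Ccl5, a chemokine of cytotoxic lymphocytes, had signals of 9.33, 9.75 and 10.61 in B-cell deficient MDI lungs, against 7.54, 8.44 and 8.74 in B-cell deficient controls. Ccl5 signals in the other strain were 7.17, 8.47 and 9.65 in C57BL/6 MDI lungs, against 8.16, 9.22 and 9.53 in C57BL/6 controls. The B-cell deficient groups did not overlap and the C57BL/6 groups did. The effects were 1.60 ± 0.21 (adjusted p = 9.12e-08) and -0.47 ± 0.21 (adjusted p = 0.128), with a difference of 2.07 ± 0.30 (adjusted p = 3.77e-05). It was 1.72 ± 0.31 (adjusted p = 0.00225) without the narrow controls.

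Eomes, a transcription factor of natural killer and CD8 T cells, had a difference of 1.07 ± 0.19 (adjusted p = 0.000187) through an effect of 1.05 ± 0.13 (adjusted p = 2.33e-08) in B-cell deficient mice, against -0.02 ± 0.13 (adjusted p = 0.953) in C57BL/6 mice. Nkg7, a granule protein, had 1.26 ± 0.24 (adjusted p = 0.000395), and Klra7, a Ly49 receptor, 1.05 ± 0.25 (adjusted p = 0.00279). T-cell genes rose in both strains, 16 of 18 in B-cell deficient and 9 in C57BL/6 mice, where 16.2% and 5.3% of all probe sets rose. The difference called 5 higher and none lower, beside 9.27% and 11% of all probe sets, and none without the narrow controls. Cd8b1, a chain of the CD8 co-receptor, had 1.06 ± 0.26 (adjusted p = 0.00367), Cd2, an adhesion receptor, had 0.81 ± 0.24 (adjusted p = 0.0128), Cd28, the co-stimulatory receptor, had 0.76 ± 0.22 (adjusted p = 0.0137), and Trat1, an adaptor of the T-cell receptor, had 0.75 ± 0.24 (adjusted p = 0.0227). The mean of the 18 T-cell genes was 7.04 to 7.27 in the 4 narrow controls, against 7.29 to 7.44 in the other 5.

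**Figure D3:**
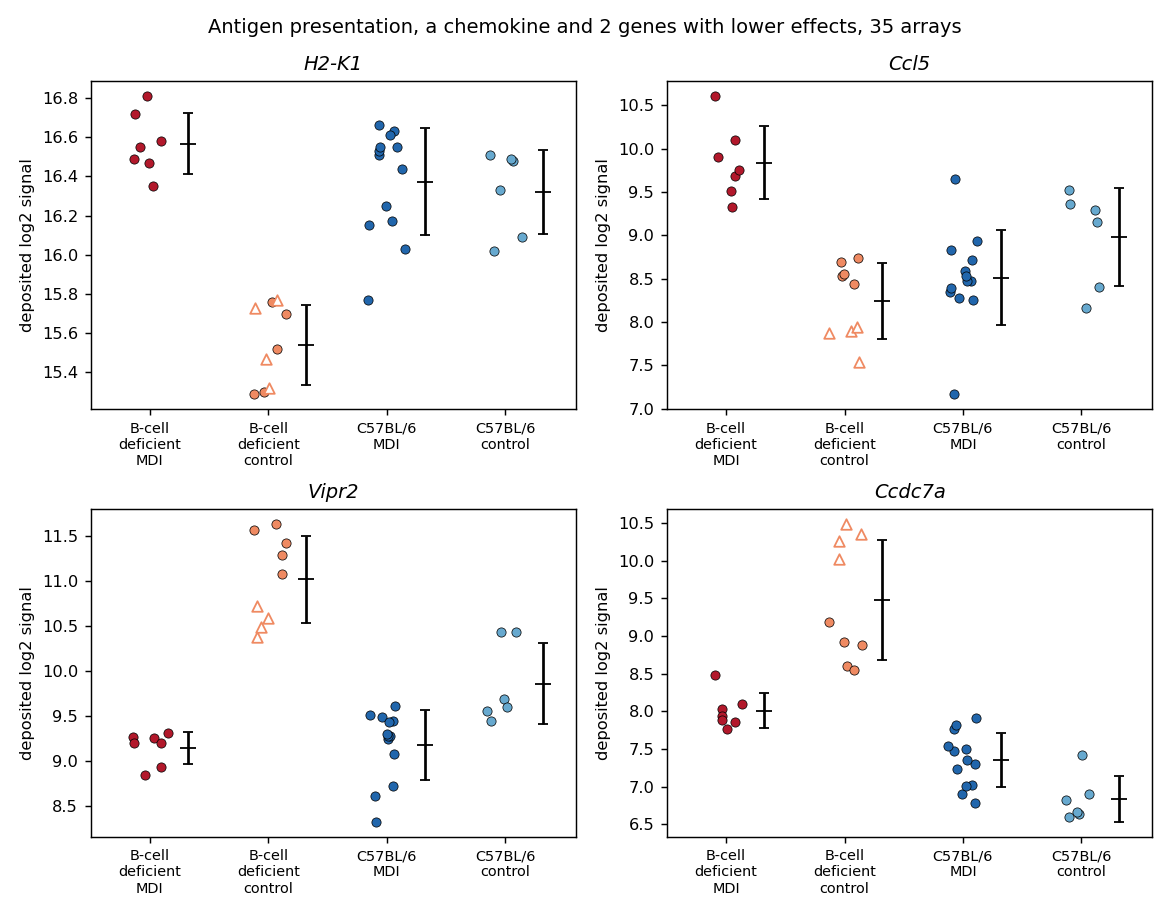
Deposited log2 signals of H2-K1, Ccl5, Vipr2 and Ccdc7a in each of the 35 arrays by group, drawn as points with open triangles for the 4 narrow B-cell deficient controls and the mean ± SD at the right. The B-cell deficient MDI lungs lie above their controls for H2-K1 and Ccl5 and below them for Vipr2 and Ccdc7a, while the C57BL/6 groups overlap in each panel.

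The largest positive difference of a named gene belonged to a neutrophil gene. Mmp9, a gelatinase stored in neutrophil granules, had signals of 6.70, 7.63 and 8.25 in B-cell deficient MDI lungs, against 4.68, 5.83 and 6.56 in B-cell deficient controls. For Mmp9, the other strain had 5.22, 7.66 and 8.62 in C57BL/6 MDI lungs, against 7.12, 8.93 and 10.22 in C57BL/6 controls. It rose in B-cell deficient mice, where the groups did not overlap, and fell in C57BL/6 mice, where they did. Without the narrow controls its effect in B-cell deficient mice was 1.32 ± 0.49 (adjusted p = 0.0574), no longer called. The effects were 1.81 ± 0.43 (adjusted p = 0.000856) and -1.62 ± 0.42 (adjusted p = 0.00557), and the difference was 3.42 ± 0.60 (adjusted p = 0.000198). It was 2.94 ± 0.65 (adjusted p = 0.0101) without the narrow controls and 4.48 ± 0.74 (adjusted p = 0.00155) within blocks.

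Neutrophil genes as a list were mixed. Of 23 measured, 5 were called higher (3 without the narrow controls) and 1 lower, beside 9.27% and 11% of all probe sets, and 16 differences were positive, with a median of 0.73. None was called lower without the narrow controls or within blocks. In B-cell deficient mice 4 rose and 2 fell, where 16.2% of all probe sets rose and 20.7% fell. In C57BL/6 mice 2 rose and 5 fell, where 5.3% rose and 9.23% fell. Retnlg, a resistin-like protein of granulocytes, had signals of 16.23, 16.85 and 17.18 in B-cell deficient MDI lungs, against 11.35, 13.14 and 14.34 in B-cell deficient controls. Retnlg in C57BL/6 mice had signals of 14.53, 15.52 and 17.20 in C57BL/6 MDI lungs, against 12.60, 14.56 and 16.10 in C57BL/6 controls. It rose in both strains, by 3.86 ± 0.40 (adjusted p = 2.39e-10) and 1.27 ± 0.40 (adjusted p = 0.0244), with a difference of 2.59 ± 0.57 (adjusted p = 0.0015). Its rise in C57BL/6 mice was not called within blocks (0.72 ± 0.45 (adjusted p = 0.355)).

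Csf3r, the receptor for the neutrophil growth factor G-CSF, had signals of 7.65, 8.14 and 9.15 in B-cell deficient MDI lungs, against 6.89, 8.08 and 8.60 in B-cell deficient controls. Csf3r signals in the other strain were 9.55, 11.19 and 12.59 in C57BL/6 MDI lungs, against 11.22, 12.69 and 13.93 in C57BL/6 controls. Its effect was 0.44 ± 0.41 (adjusted p = 0.408) in B-cell deficient mice, and it fell in C57BL/6 mice (-1.65 ± 0.40 (adjusted p = 0.00284)). The difference of 2.10 ± 0.57 (adjusted p = 0.0079) was 1.52 ± 0.60 (adjusted p = 0.144) without the narrow controls. Padi4, an enzyme of neutrophil extracellular traps, had 1.22 ± 0.33 (adjusted p = 0.00763), and Prtn3, a protease of primary granules, had -0.56 ± 0.15 (adjusted p = 0.00727), a call lost without the narrow controls (-0.42 ± 0.16 (adjusted p = 0.115)) and within blocks (-0.53 ± 0.20 (adjusted p = 0.0968)). The mean of the 23 genes ran from 7.51 to 7.95 in B-cell deficient MDI lungs, against 7.16 to 7.67 in B-cell deficient controls. It ran more widely in the other strain, from 7.45 to 9.38 in C57BL/6 MDI lungs, against 7.91 to 9.51 in C57BL/6 controls. It was 7.16 to 7.48 in the 4 narrow controls, against 7.49 to 7.67 in the other 5.

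Inflammatory cytokine genes had 4 of 20 called higher, beside 9.27% of all probe sets, and none lower. Without the narrow controls 1 was called higher, beside 1.62%. Il1b, the cytokine interleukin 1 beta, had signals of 8.33, 8.79 and 9.43 in B-cell deficient MDI lungs, against 7.07, 8.14 and 9.06 in B-cell deficient controls. For Il1b, the other strain had 8.20, 10.09 and 11.78 in C57BL/6 MDI lungs, against 9.61, 11.77 and 12.67 in C57BL/6 controls. The effects were 0.82 ± 0.37 (adjusted p = 0.0773) and -1.46 ± 0.36 (adjusted p = 0.00402), so the difference of 2.27 ± 0.52 (adjusted p = 0.00211) came with a called fall in C57BL/6 mice alone. Nlrp3, an inflammasome sensor, had an effect of 0.03 ± 0.20 (adjusted p = 0.911) in B-cell deficient mice and also fell in C57BL/6 mice (-1.10 ± 0.19 (adjusted p = 5.74e-05)). Il1rn, the antagonist of the interleukin 1 receptor, rose in B-cell deficient mice (2.77 ± 0.33 (adjusted p = 7.73e-09)), with an effect of 0.90 ± 0.33 (adjusted p = 0.0543) in C57BL/6 mice. Tnfaip3, an inhibitor of NF-kappaB signalling, had a difference of 1.21 ± 0.28 (adjusted p = 0.00274). The differences of Il1b, Nlrp3 and Il1rn lost the call without the narrow controls (adjusted p = 0.0652, 0.0691 and 0.0964).

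**Figure D4:**
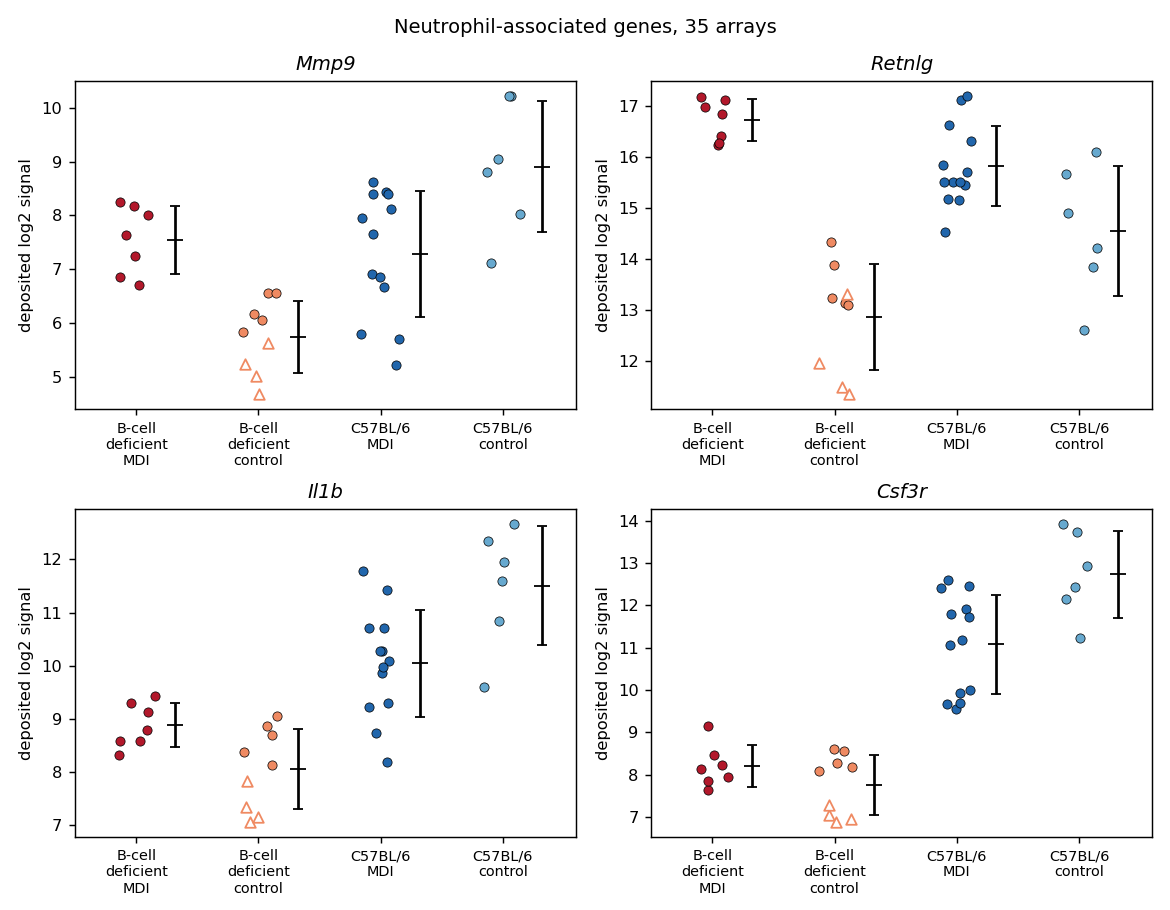
Deposited log2 signals of Mmp9, Retnlg, Il1b and Csf3r in each of the 35 arrays by group, drawn as points with open triangles for the 4 narrow B-cell deficient controls and the mean ± SD at the right. The C57BL/6 controls have a higher mean than the C57BL/6 MDI lungs for Mmp9, Il1b and Csf3r and a lower one for Retnlg.

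Other genes with large positive differences are known from myeloid cells. Rac2, a GTPase of the blood-cell lineage, had signals of 10.79, 11.34 and 11.66 in B-cell deficient MDI lungs, against 7.99, 9.38 and 9.89 in B-cell deficient controls. C57BL/6 signals of Rac2 were 9.49, 11.02 and 12.13 in C57BL/6 MDI lungs, against 9.79, 10.90 and 12.03 in C57BL/6 controls. Its difference of 2.17 ± 0.41 (adjusted p = 0.000434) came with an effect of 0.06 in C57BL/6 mice. Ncf1, a subunit of the phagocyte oxidase, rose in both strains, by 2.73 ± 0.23 (adjusted p = 2.62e-13) and 0.81 ± 0.22 (adjusted p = 0.00927), with a difference of 1.92 ± 0.32 (adjusted p = 0.000116), and its rise in C57BL/6 mice was not called within blocks (0.66 ± 0.28 (adjusted p = 0.132)). Tarm1, an activating receptor of myeloid cells, had 2.68 ± 0.57 (adjusted p = 0.00126), and Aqp9, a channel for water and glycerol, had 2.11 ± 0.38 (adjusted p = 0.000257). Pla2g7, which degrades platelet-activating factor, had 1.91 ± 0.43 (adjusted p = 0.00177).

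Among signalling inhibitors, Ptpn6, the phosphatase SHP-1, had a difference of 1.87 ± 0.38 (adjusted p = 0.000674), Vsir, the checkpoint receptor VISTA, had 1.86 ± 0.28 (adjusted p = 4.51e-05), and Cish, a feedback inhibitor of cytokine receptors, had 1.83 ± 0.34 (adjusted p = 0.000374). Vsir had signals of 12.52, 12.84 and 13.18 in B-cell deficient MDI lungs, against 10.66, 11.72 and 12.02 in B-cell deficient controls. Vsir signals in the other strain were 11.61, 12.25 and 12.87 in C57BL/6 MDI lungs, against 11.94, 12.90 and 13.61 in C57BL/6 controls, with overlap between them. Themis2, a signalling adaptor of B cells and macrophages, rose in B-cell deficient (1.17 ± 0.27 (adjusted p = 0.000666)) and fell in C57BL/6 mice (-0.89 ± 0.27 (adjusted p = 0.0181)), with a difference of 2.06 ± 0.38 (adjusted p = 0.00034). The rise of Themis2 in B-cell deficient mice ended without the narrow controls (0.65 ± 0.29 (adjusted p = 0.116)). These myeloid and inhibitor genes all kept the call of the difference itself without those controls, as the rule that named them required.

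Calls for the difference varied between the macrophage lists. Of 19 interstitial macrophage and monocyte genes, 6 were called higher and none lower, and 2 higher without the narrow controls. All but 1 of the 19 lie above the median signal, where 15% of probe sets were called higher, and 2.62% without the narrow controls. Of 22 alternatively activated macrophage genes, 1 was called higher. The mean of the 19 interstitial macrophage and monocyte genes was 9.69 to 9.96 in the 4 narrow controls, against 10.14 to 10.42 in the other 5, with no overlap. Csf1r, the receptor for macrophage growth factor, had a difference of 1.14 ± 0.23 (adjusted p = 0.000778), and Ly6c2, a marker of classical monocytes, had 0.86 ± 0.18 (adjusted p = 0.00108). C1qa, a chain of complement C1q, rose by 2.29 ± 0.23 (adjusted p = 5.39e-11) and 1.30 ± 0.22 (adjusted p = 4.49e-05). Its difference of 0.99 ± 0.32 (adjusted p = 0.0231) ended without the narrow controls (0.74 ± 0.34 (adjusted p = 0.206)), as did that of C1qc, another chain (1.26 ± 0.36 (adjusted p = 0.0109) and 0.84 ± 0.37 (adjusted p = 0.189)).

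Of 16 alveolar macrophage genes, all above the median signal, 4 were called higher, not far from the 15% of all such probe sets, and none without the narrow controls. They included Plet1, at 0.49 ± 0.14 (adjusted p = 0.0138), which turned to -0.35 with arrays centred and scaled, and Pparg, the nuclear receptor that sets the identity of these cells, at 0.85 ± 0.30 (adjusted p = 0.0357). Car5b, a mitochondrial carbonic anhydrase, had 0.80 ± 0.28 (adjusted p = 0.035) and Krt79, a keratin, had 0.67 ± 0.24 (adjusted p = 0.0442). The calls of Pparg, Car5b and Krt79 ended when any of 8, 8 and 18 single arrays was left out. The alveolar macrophage count was 1 without C57BL/6 control 2 or 4, B-cell deficient MDI 2 or B-cell deficient control 2, 5 or 6, 2 without B-cell deficient MDI 6 or C57BL/6 control 5, and 7 without C57BL/6 control 6. The interstitial count was 3 without C57BL/6 control 2.

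Most mucous and secreted airway genes rose in both strains, and few differed in effect. Of 25 mucous and secreted airway genes, 18 rose in B-cell deficient and 15 in C57BL/6 mice, and none fell. Of all probe sets 16.2% and 5.3% rose. The difference called 1 higher and none lower, with a median of 0.03. The shares of all probe sets called higher and lower were 9.27% and 11%. Clca1, which goblet cells secrete, had signals of 17.42, 18.03 and 18.60 in B-cell deficient MDI lungs, against 5.83, 10.48 and 12.01 in B-cell deficient controls. For Clca1, the other strain had 16.41, 17.27 and 19.00 in C57BL/6 MDI lungs, against 6.47, 9.45 and 13.42 in C57BL/6 controls. The MDI lungs of both strains lay above all their controls. The difference was 0.28 ± 0.94 (adjusted p = 0.862), with an SE that leaves room for a difference of more than 1 on the log2 scale in either direction.

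Muc5ac, the inducible gel-forming mucin, rose by 5.32 ± 0.40 (adjusted p = 1.19e-14) and 5.41 ± 0.39 (adjusted p = 3.07e-15), with a difference of -0.09 ± 0.56 (adjusted p = 0.926). Muc5b, the mucin of mucociliary clearance, had a difference of 0.52 ± 0.52 (adjusted p = 0.494). The 1 called gene was Galnt12, an enzyme that starts O-linked glycans, at 0.83 ± 0.17 (adjusted p = 0.000992). Pigr, the epithelial receptor that carries IgA and IgM to the airway, rose by 2.38 ± 0.23 (adjusted p = 1.84e-11) and 2.49 ± 0.22 (adjusted p = 4.15e-12), with a difference of -0.11 ± 0.32 (adjusted p = 0.836). Ccl11, the eosinophil chemokine eotaxin, had a difference of 0.15 ± 0.53 (adjusted p = 0.867), and Ccl17, which draws T helper 2 cells, had 0.62 ± 0.59 (adjusted p = 0.471). Mmp12 and Arg1, products of alternatively activated macrophages, had 1.14 ± 0.74 (adjusted p = 0.269) and 0.66 ± 0.64 (adjusted p = 0.477), and Retnla and Chil3, from the same cells, had -0.12 ± 0.55 (adjusted p = 0.899) and -0.21 ± 0.32 (adjusted p = 0.667). Cftr, the chloride channel of airway epithelium, had 0.26 ± 0.25 (adjusted p = 0.477). A p above the threshold does not show that these effects are equal.

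Eosinophil genes rose in both strains, 13 of 13 in B-cell deficient and 10 in C57BL/6 mice, where 16.2% and 5.3% of all probe sets rose. The difference called 4 higher and none lower, and 3 higher within blocks, beside 9.27% of all probe sets called higher and 3.83% within blocks. Without the narrow controls the 1 called was Ccl5, which the list shares with the cytotoxic genes. Rnase2a, an eosinophil-associated ribonuclease, had signals of 13.66, 14.49 and 16.03 in B-cell deficient MDI lungs, against 6.51, 6.97 and 8.34 in B-cell deficient controls. Rnase2a in C57BL/6 mice had signals of 9.17, 11.38 and 13.43 in C57BL/6 MDI lungs, against 4.98, 5.74 and 7.08 in C57BL/6 controls. Its effects of 7.56 ± 0.43 (adjusted p = 9.33e-19) and 5.33 ± 0.42 (adjusted p = 5.65e-14) gave a difference of 2.22 ± 0.60 (adjusted p = 0.00761), and 2.06 ± 0.67 (adjusted p = 0.0721) without the narrow controls. Il5ra, the interleukin 5 receptor, had 1.35 ± 0.32 (adjusted p = 0.00298), and F5, coagulation factor V, had 1.52 ± 0.40 (adjusted p = 0.00582). Ccr3, the eotaxin receptor, had 1.25 ± 0.50 (adjusted p = 0.0664). The count was 7 without C57BL/6 MDI replicate 12.

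Of 18 type 2 cytokine genes and genes of their sources, 3 were called higher and none lower, beside 9.27% and 11% of all probe sets. Il4, the cytokine that drives IgE class switching, had signals of 7.29, 7.59 and 8.03 in B-cell deficient MDI lungs, against 4.43, 4.74 and 5.93 in B-cell deficient controls. Il4 signals in the other strain were 4.82, 5.77 and 7.08 in C57BL/6 MDI lungs, against 4.15, 4.62 and 5.30 in C57BL/6 controls. The Il4 probe set lies below the median signal, so its folds hold only for the deposited scale. All B-cell deficient MDI lungs exceeded their controls and the C57BL/6 groups overlapped. It rose by 2.67 ± 0.23 (adjusted p = 5e-13) and 1.20 ± 0.22 (adjusted p = 0.000125), with a difference of 1.46 ± 0.32 (adjusted p = 0.00141), or 1.38 ± 0.35 (adjusted p = 0.0226) without the narrow controls. Il13, the mucus-inducing cytokine, had -0.24 ± 0.20 (adjusted p = 0.412), Il33, an epithelial alarmin, had -0.49 ± 0.36 (adjusted p = 0.335), and Il25, another, had -0.52 ± 0.22 (adjusted p = 0.0857). Tslp, the third of the epithelial alarmins, had 0.82 ± 0.25 (adjusted p = 0.0164), and Stat6, which relays the signals of interleukins 4 and 13, had 0.64 ± 0.15 (adjusted p = 0.00267). The difference for Stat6 turned to -0.15 with arrays centred and scaled, and both Tslp and Stat6 lost the call without the narrow controls.

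Some genes of the B-cell list rose with MDI in B-cell deficient mice although Cd79a and Ms4a1 stayed at their low signals. Of 20 listed and measured, 6 rose and 2 fell with MDI in B-cell deficient mice, where 16.2% of all probe sets rose and 20.7% fell. In C57BL/6 mice none rose and 1 fell, where 5.3% rose and 9.23% fell. The difference called 6 higher and none lower, 4 without the narrow controls. Of all probe sets 9.27% were called higher, and 1.62% without the narrow controls. Bank1, a B-cell scaffold protein also found in myeloid cells, had signals of 7.72, 8.34 and 9.26 in B-cell deficient MDI lungs, against 5.61, 6.20 and 7.08 in B-cell deficient controls. For Bank1, the other strain had 9.17, 11.17 and 11.77 in C57BL/6 MDI lungs, against 10.22, 10.69 and 11.24 in C57BL/6 controls. The B-cell deficient groups did not overlap, while the C57BL/6 groups overlapped. The difference was 2.01 ± 0.42 (adjusted p = 0.00107). Cd37, a tetraspanin of B cells and other leukocytes, had 1.81 ± 0.37 (adjusted p = 0.00088), Spib, a transcription factor of B cells and plasmacytoid dendritic cells, had 1.23 ± 0.24 (adjusted p = 0.000533), and Blnk, an adaptor of B cells and macrophages, had 0.82 ± 0.21 (adjusted p = 0.00528).

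Plasma cell and mucosal antibody genes had no call for the difference among 10 measured, while limma's p before adjustment was under 0.05 for 1 higher and 2 lower genes. Jchain, which joins IgA and IgM into polymers, had signals of 2.13, 2.87 and 3.37 in B-cell deficient MDI lungs, against 2.64, 3.01 and 3.67 in B-cell deficient controls. C57BL/6 signals of Jchain were 8.78, 10.74 and 11.89 in C57BL/6 MDI lungs, against 8.03, 8.97 and 10.70 in C57BL/6 controls. It stood far lower in every B-cell deficient array than in any C57BL/6 array. Its difference was -1.23 ± 0.53 (adjusted p = 0.0894). Mzb1 and Xbp1, which serve antibody folding and secretion, had -0.36 ± 0.18 (adjusted p = 0.132) and 0.32 ± 0.23 (adjusted p = 0.317), and Irf4, a transcription factor of plasma cells and macrophages, had 0.70 ± 0.33 (adjusted p = 0.122). Of 11 Fc receptors, 3 were called higher, beside 9.27% of all probe sets, and none without the narrow controls. They were Fcgr4, a receptor for IgG on myeloid cells (1.39 ± 0.35 (adjusted p = 0.0043)), Fcer1g, the shared signalling chain (1.32 ± 0.33 (adjusted p = 0.00382)), and Trim21, the cytosolic antibody receptor (0.68 ± 0.24 (adjusted p = 0.0363)). Fcer1a, the IgE-binding chain, had -0.46 ± 0.18 (adjusted p = 0.0578).

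The negative differences described here are the 15 largest of the 52 brighter genes that were called lower with and without the narrow controls. Ccdc7a, a coiled-coil protein, had signals of 7.77, 7.94 and 8.48 in B-cell deficient MDI lungs, against 8.55, 9.18 and 10.49 in B-cell deficient controls. Ccdc7a signals in the other strain were 6.79, 7.35 and 7.91 in C57BL/6 MDI lungs, against 6.60, 6.75 and 7.42 in C57BL/6 controls. It fell in B-cell deficient mice (-1.46 ± 0.23 (adjusted p = 1.94e-06)), where the MDI lungs lay below all controls, with an effect of 0.51 ± 0.22 (adjusted p = 0.117) in C57BL/6 mice. The difference was -1.98 ± 0.32 (adjusted p = 9.01e-05), or -1.33 ± 0.26 (adjusted p = 0.0048) without the narrow controls. Vipr2, a receptor for vasoactive intestinal peptide, had signals of 8.84, 9.20 and 9.31 in B-cell deficient MDI lungs, against 10.38, 11.08 and 11.64 in B-cell deficient controls. For Vipr2, the other strain had 8.32, 9.28 and 9.61 in C57BL/6 MDI lungs, against 9.44, 9.64 and 10.43 in C57BL/6 controls. It fell in both strains, by -1.88 ± 0.19 (adjusted p = 7.13e-11) and -0.68 ± 0.18 (adjusted p = 0.00832), the second not called within blocks (-0.62 ± 0.23 (adjusted p = 0.0779)), and the difference was -1.20 ± 0.26 (adjusted p = 0.00157), or -1.58 ± 0.26 (adjusted p = 0.00142) without the narrow controls.

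Late cornified envelope genes, which build the outer skin barrier, supplied 4 of the 15 named, with differences of -1.42 for Lce1j, -1.26 for Lce1a2, -1.22 for Lce1b and -1.18 for Lce1h. They are near copies and their separate values are uncertain. Krtap16-3, a hair keratin-associated protein, had -1.21 ± 0.24 (adjusted p = 0.000533). Styk1, a kinase-like membrane protein, had -1.74 ± 0.34 (adjusted p = 0.000557), and Slc30a3, a zinc transporter, had -1.22 ± 0.26 (adjusted p = 0.00105). Lpar1, a receptor for lysophosphatidic acid, had -0.98 ± 0.19 (adjusted p = 0.000469), Btc, a ligand of the EGF receptor, had -1.05 ± 0.24 (adjusted p = 0.00186), and Leap2, a peptide that blocks the ghrelin receptor, had -1.08 ± 0.21 (adjusted p = 0.000531). Tafa1, Prss51 and Gar1, the last a protein of small nucleolar ribonucleoproteins, had differences of -1.19, -1.02 and -1.01. The effects of MDI in C57BL/6 mice were positive for all 13 of these genes, and the 1 called was Gar1 (0.41 ± 0.14 (adjusted p = 0.0473)), which lost its call within blocks (0.38 ± 0.17 (adjusted p = 0.164)), where Lce1a2 was called (0.58 ± 0.19 (adjusted p = 0.0465)). Choosing the most negative differences favours positive effects in C57BL/6 mice, so the shared sign is no separate result.

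Squamous epithelium genes, none of them above the median signal, had 5 of 20 called lower and none higher, beside 18.9% of dim probe sets called lower, and 2 lower without the narrow controls. The count was 3 without C57BL/6 control 3, 4 or 5, B-cell deficient control 1 or B-cell deficient MDI 2, 4, 6 or 7. In B-cell deficient mice 13 fell with MDI and none rose, where 28.3% of dim probe sets fell, and 9 fell without the narrow controls, where 8.13% did. Sprr1a, a cornified envelope precursor, had signals of 4.26, 4.58 and 5.93 in B-cell deficient MDI lungs, against 5.51, 6.60 and 8.27 in B-cell deficient controls. Sprr1a in C57BL/6 mice had signals of 3.96, 4.69 and 5.70 in C57BL/6 MDI lungs, against 3.98, 4.63 and 4.94 in C57BL/6 controls. The difference was -2.11 ± 0.40 (adjusted p = 0.000434). Lgals7, a galectin of stratified epithelium, had -1.12 ± 0.22 (adjusted p = 0.000627), and Dsg3, a desmosomal cadherin, had -0.83 ± 0.27 (adjusted p = 0.022). Krt13, a keratin of the oesophagus and trachea, had signals of 4.48, 5.34 and 9.23 in B-cell deficient MDI lungs, against 6.79, 7.81 and 14.21 in B-cell deficient controls. Krt13 signals in the other strain were 3.68, 4.88 and 8.90 in C57BL/6 MDI lungs, against 4.82, 5.04 and 5.39 in C57BL/6 controls. The difference of -2.53 ± 0.89 (adjusted p = 0.0379) came with B-cell deficient control 7 at 14.21, far above the rest of its group, and the call ended when any of 9 single arrays was left out. The mean of the 20 squamous genes ran from 4.88 to 6.16 in B-cell deficient MDI lungs, against 5.52 to 7.75 in B-cell deficient controls. It ran from 4.35 to 5.91 in C57BL/6 MDI lungs, against 4.65 to 4.77 in C57BL/6 controls. Heart muscle genes also varied between arrays. The mean of 12 ran from 10.38 to 12.74 and from 9.06 to 11.98 in B-cell deficient MDI and control lungs, and from 8.47 to 10.35 and from 7.99 to 10.85 in C57BL/6 MDI and control lungs. The part of such tissue in the results was not tested.

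**Figure D5:**
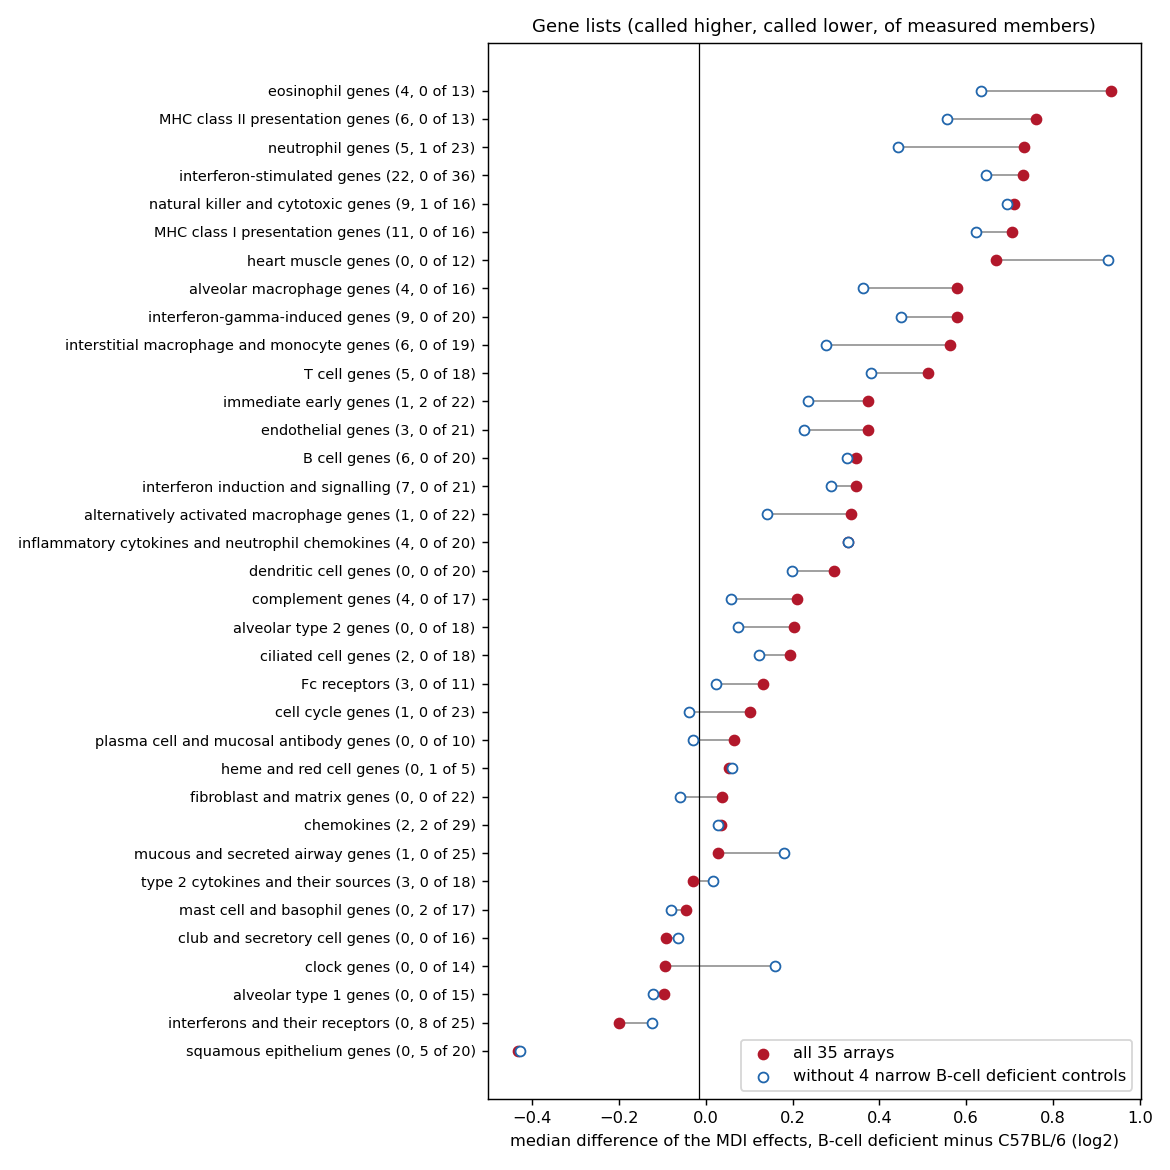
Median difference of the MDI effects (log2, B-cell deficient minus C57BL/6) over the measured members of each of 35 gene lists, with all 35 arrays (filled) and without the 4 narrow B-cell deficient controls (open); labels give the members called higher, called lower and measured. The black line is the median of all probe sets, -0.01; the interferon-stimulated, MHC, eosinophil, neutrophil and, with no call, heart muscle lists lie well to its right and squamous epithelium genes furthest to its left.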

How the data were processed

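Whole-lung RNA was hybridised to 1-colour Affymetrix arrays of 22206 probe sets. The authors deposited log2 signals with 2 decimals, made with Transcriptome Analysis Console per the submitters' processing notes. No version or normalization method is given in the sources used here. A base of 2 was inferred from the values, which reach 20.91, so folds hold for the deposited scale. No value was rescaled. Array number limits the precision. No label says how many mice an array stands for, so p-values measure the spread between arrays.

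Groups came from the submitters' labels. Of 51 arrays, 49 entered 1 limma model (limma 3.58.1, R 4.3.3) of 8 group means with an intensity trend and 41 residual degrees of freedom, and 2 with contradicting labels were left out. The remaining groups add only to the estimate of spread. Contrasts were the effect of MDI in each strain and their difference, tested 2-sided with Benjamini-Hochberg adjustment over all probe sets at 0.05. The procedure was tested on simulated data. Symbols came from the array annotation: 19572 probe sets had 1 symbol and 2634 had none, and for 55 symbols with several probe sets the brightest stood for the gene.

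The comparison, the 35 gene lists and the 19 described were chosen with earlier results of these data known. Named genes were up to 15 per direction with the largest difference among called probe sets that were brighter than the median and kept the call without the 4 narrow controls, up to 4 members per described list by adjusted p, and fixed genes of the airway response, 119 in all. Genes outside the rule are marked. The narrow controls are the 4 B-cell deficient controls of smallest SD. Alternatives were 35 arrays only, quantile normalization, centring, centring with scaling, a filter on dim probe sets, no trend, array weights, submission blocks, a replicate block and each array left out, and 3 combinations chosen after seeing the data. Promoters came from RefSeq (GRCm38.p6). Figures used matplotlib 3.10.9 in Python 3.11.15.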

Additional observations from a re-analysis of the deposited data

Results flagged for a closer look

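The effect of MDI differed between the strains, by limma's test of the difference itself, for 4502 probe sets and for 93 of the 119 named genes. The values are B-cell deficient minus C57BL/6 effects on the log2 scale, and the tests of most, not all, stand with the genes above. Ifna5 and Ifna14 are named only here. The highest of these were 3.42 for Mmp9, 3.40 for Irf7, 2.68 for Tarm1, 2.59 for Retnlg, 2.27 for Il1b, 2.22 for Rnase2a, 2.17 for Rac2, 2.11 for Aqp9, 2.10 for Csf3r, 2.07 for Ccl5, 2.06 for Themis2 and 2.01 for Bank1. They were followed by 1.92 for Ncf1, 1.91 for Pla2g7, 1.87 for Ptpn6, 1.87 for Il1rn, 1.86 for Vsir, 1.83 for Cish, 1.81 for Cd37, 1.78 for H2-Q5, 1.59 for Unc93b1, 1.54 for Oas2, 1.52 for F5 and 1.46 for Il4. Next came values of 1.43 for Slfn8, 1.39 for Tap1, 1.39 for Fcgr4, 1.35 for Il5ra, 1.34 for Igtp, 1.34 for H2-D1, 1.33 for Psmb8, 1.32 for Fcer1g, 1.29 for H2-DMa, 1.26 for C1qc, 1.26 for Nkg7 and 1.23 for Spib. Lower on the list were 1.22 for Padi4, 1.21 for Tnfaip3, 1.15 for H2-T23, 1.14 for Csf1r, 1.13 for Nlrp3, 1.12 for Psmb9, 1.09 for Usp18, 1.07 for Eomes, 1.06 for Cd8b1, 1.05 for Klra7, 1.03 for Tlr9 and 0.99 for C1qa. Below these stood 0.98 for Xaf1, 0.97 for H2-K1, 0.96 for H2-DMb2, 0.93 for Adar, 0.90 for H2-Aa, 0.86 for Ly6c2, 0.85 for Pparg, 0.83 for H2-Ab1, 0.83 for Galnt12, 0.82 for Tslp, 0.82 for Blnk and 0.81 for Cd2. Toward the low end were 0.80 for Car5b, 0.76 for Cd28, 0.75 for Trat1, 0.68 for Trim21, 0.67 for Krt79, 0.64 for Stat6, 0.63 for Irf9, 0.60 for Isg15 and 0.49 for Plet1. Among negative differences, the values were -2.53 for Krt13, -2.11 for Sprr1a, -1.98 for Ccdc7a, -1.74 for Styk1, -1.42 for Lce1j, -1.26 for Lce1a2, -1.22 for Slc30a3, -1.22 for Lce1b, -1.21 for Krtap16-3, -1.20 for Vipr2, -1.19 for Tafa1 and -1.18 for Lce1h. Further negative differences were -1.12 for Lgals7, -1.08 for Leap2, -1.05 for Btc, -1.03 for Ifna1, -1.02 for Prss51, -1.01 for Gar1, -0.98 for Lpar1, -0.86 for Ifna5, -0.83 for Dsg3, -0.78 for Ifna14, -0.71 for Ifnb1 and -0.56 for Prtn3. 

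Single arrays stood apart from their group for 13 of the 357 sets of 6 to 9 arrays examined (named genes by group), by the gap to the nearest other array relative to the range of the group. Chance gives such a gap in about 1 of 20 sets. In B-cell deficient MDI lungs these were Fut2 in replicate 7 (5.71) and Krt13 in replicate 3 (9.23). In B-cell deficient controls they were Lce1h in replicate 7 (9.91), Oas2 in replicate 8 (6.10), Krt13 in replicate 7 (14.21), Rnase2a in replicate 8 (8.34) and Dsg3 in replicate 7 (6.58). In C57BL/6 controls they were Btc in replicate 3 (7.32), Tafa1 in replicate 4 (10.21), Styk1 in replicate 1 (8.09), Ccdc7a in replicate 6 (7.42), Xaf1 in replicate 3 (11.03) and Psmb9 in replicate 6 (8.75). The C57BL/6 MDI group, with 13 arrays, was too large for this check.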

How the results depend on the processing

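The 4502 probe sets called for the difference became 1895 with dim probe sets filtered out, 2444 with the submission block as a fixed term, 1584 within submission blocks and 719 without the 4 narrow controls. Joined with that omission, they became 373 with the dim filter, 560 with quantile normalization and 119 within blocks. Under the same settings the 8205 called for MDI in B-cell deficient mice became 4302, 4499, 4184, 3780, 2618, 3917 and 1585. The 3225 called for MDI in C57BL/6 mice became 1763 with a replicate block. Same-numbered arrays correlated between -0.12 and 0.18 in B-cell deficient mice and between -0.22 and 0.18 in C57BL/6 mice, so the numbers do not pair the arrays. With the replicate block the difference had 4580 calls. Leaving out single arrays gave 3524 to 5160 calls for the difference, 7074 to 8582 in B-cell deficient and 2278 to 3489 in C57BL/6 mice. With arrays centred and scaled the difference changed sign for H2-Aa (-0.079), H2-Ab1 (-0.19), H2-K1 (-0.19), Plet1 (-0.35), Stat6 (-0.15) and the uncalled Xbp1 (-0.78). The cause of these changes was not tested. Of 93 named genes with a call, 36 lost it without the narrow controls. Without those controls, 67 lost it within blocks and 36 with quantile normalization. The genes named for the largest differences were required to keep the call without the narrow controls. None of them could thus be among the 36 lost by that omission alone, and the share kept is no measure of robustness. Over all probe sets that omission took 4502 calls to 719. The call was lost by 21 within blocks, 13 with the block as a fixed term and 12 with arrays centred and scaled. The 12 leave out the genes that changed sign, of which H2-K1 also lost its call (limma, adjusted p = 0.687). No other setting changed a sign among calls. The dim filter kept only 87 of the 119 named genes, and 25 of these lost the call with the filter and without the narrow controls. With single arrays left out, 63 of 4165 values lost the call and 19 gained it. Detection calls were not used here, so dim probe sets carry an unknown share of background.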
